A study of Mus musculus with 9 samples.

Results

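The genes described here are the mouse genes with a numbered Zfp name (Zfp for zinc finger protein), among them Zfp871, which the study itself knocked down. They were chosen by their name and by their measured level in the 3 control libraries of the study. A gene had to be called Zfp followed only by digits, and to reach 5 CPM, the raw read count scaled by the library's total, in each of those libraries. By name there were 340 such genes, and 223 of them reached that level, against 9546 genes of any name among 21553 with counts. The genes nearest the threshold were Zfp341 and Zfp820 inside it, with lowest control values of 5.04 and 5.01 CPM, and Zfp3 and Zfp808 outside it, with 4.90 and 4.89 CPM.

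The study measured polyA RNA of N2A cells, a mouse neuroblastoma line, harvested 48 hours after transfection with pooled small interfering RNAs, in 9 libraries forming 6 groups. The first experiment held 1 library each of cells treated against Mbnl1 and Mbnl2 together, against Nacc1, and with a non-targeting pool (siNT). The second held 2 libraries each, named a and b in the tables, of cells treated against Srrm4, against Zfp871, and with the non-targeting pool. All groups shared 1 cell line with no stable genetic change named, each knockdown was transient and came from 1 siRNA pool, and the protocol names 2 extraction methods without saying which library had which. Whether libraries a and b of a group were grown separately is not in the labels, so a p-value measures only the spread between these libraries, which may be technical.

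C2H2 zinc finger proteins form the largest family of mammalian transcription factors. Each finger is a short loop held by a zinc ion that contacts a few bases of DNA, and arrays of fingers read longer sites. Many members carry a KRAB domain near the start of the protein, which recruits the scaffold Trim28 (Kap1) and through it the histone methyltransferase Setdb1 and heterochromatin proteins, a machinery known for silencing transposable elements and imprinted genes. Zfp871 is a KRAB protein of 615 residues with 15 finger patterns in its GENCODE M21 translation. Its gene lies on the minus strand of chromosome 17, at chr17:32765496-32788287 in GRCm38. In these genes the first part of the KRAB domain, the A box, usually sits in an exon of its own of 127 bases, and 79 of the 223 genes have such an exon in the annotation. The exon of Zfp871 is shown with those of Zfp799, its neighbour and most similar protein, of Zfp617, the next most similar, and of Zfp655. In N2A cells the Zfp655 exon was mostly skipped. All sequences are genomic, of the coding strand in GRCm38, and the capitals mark the core of the A box found by a protein pattern search.
Zfp871: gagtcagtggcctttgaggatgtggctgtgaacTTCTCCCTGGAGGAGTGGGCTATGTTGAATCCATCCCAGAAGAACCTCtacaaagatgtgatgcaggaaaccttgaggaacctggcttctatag
Zfp799: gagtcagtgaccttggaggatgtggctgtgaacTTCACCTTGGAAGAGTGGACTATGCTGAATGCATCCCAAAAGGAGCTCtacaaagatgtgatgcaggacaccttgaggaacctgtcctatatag
Zfp617: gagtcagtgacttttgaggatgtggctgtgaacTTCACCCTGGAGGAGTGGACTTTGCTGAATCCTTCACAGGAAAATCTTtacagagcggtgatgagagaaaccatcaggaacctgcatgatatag
Zfp655: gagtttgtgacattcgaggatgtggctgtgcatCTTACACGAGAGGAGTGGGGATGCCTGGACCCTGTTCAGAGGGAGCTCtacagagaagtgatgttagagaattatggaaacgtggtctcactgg

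The Zfp871 exon lies at chr17:32777401-32777527 on the minus strand and that of Zfp799 at chr17:32822074-32822200, also on the minus strand. The Zfp617 exon is at chr8:71928202-71928328 and the Zfp655 exon at chr5:145235737-145235863, both on the plus strand. Of the 127 bases of the Zfp871 exon, 112 were the same in Zfp799, 103 in Zfp617 and 81 in Zfp655. Over the 78 other genes with such an exon, identity to Zfp871 had a median of 64.6% and ran from 52.8% to 88.2%.

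By their proteins the 223 genes fell into 94 with a KRAB pattern and 3 or more fingers, 107 with fingers and no KRAB pattern, and 22 with fewer than 3 fingers of the C2H2 kind. The KRAB proteins had a median of 12 fingers and up to 23, the finger proteins without KRAB a median of 9 and up to 37. The genes were clustered: 62 were on chromosome 7, 24 on chromosome 17 and 18 on chromosome 8. Such clusters hold near-copies, and reads from a shared stretch can be counted for either copy. In the median gene 0.648% of 50-base windows of the transcript also occurred in another gene, while 39 genes shared over 10% and 13 over 25% of them. For Zfp871 the share was 0.262%.

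Zfp genes were expressed at low levels. Levels per length are given as cRPKM, the authors' reads per length and depth, for the first experiment, and for the second as CPM put on that scale with each gene's ratio of CPM to cRPKM in the first. On this scale the 223 genes had a median of 6.91 over the 3 control libraries with quartiles of 4.30 and 12.6, while all genes past the same floor had a median of 17.3 and quartiles of 8.18 and 38.2. Zfp207, a spindle and splicing factor with few fingers, stood highest at 83.6 cRPKM in the first experiment's control and 115 in both controls of the second. The next were Zfp330, a nucleolar protein, and Zfp828, a chromosome alignment factor, with means of 45.9 and 44.5 cRPKM. Zfp871 ranked 128 of 223, at 9.34 cRPKM in the first experiment's control and 3.54 and 5.13 in the second's. Together the 223 genes took between 0.689% and 0.881% of the counts of a library. The experiments were deposited in separate tables, so levels set side by side across them are descriptions.

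**Figure D1:**
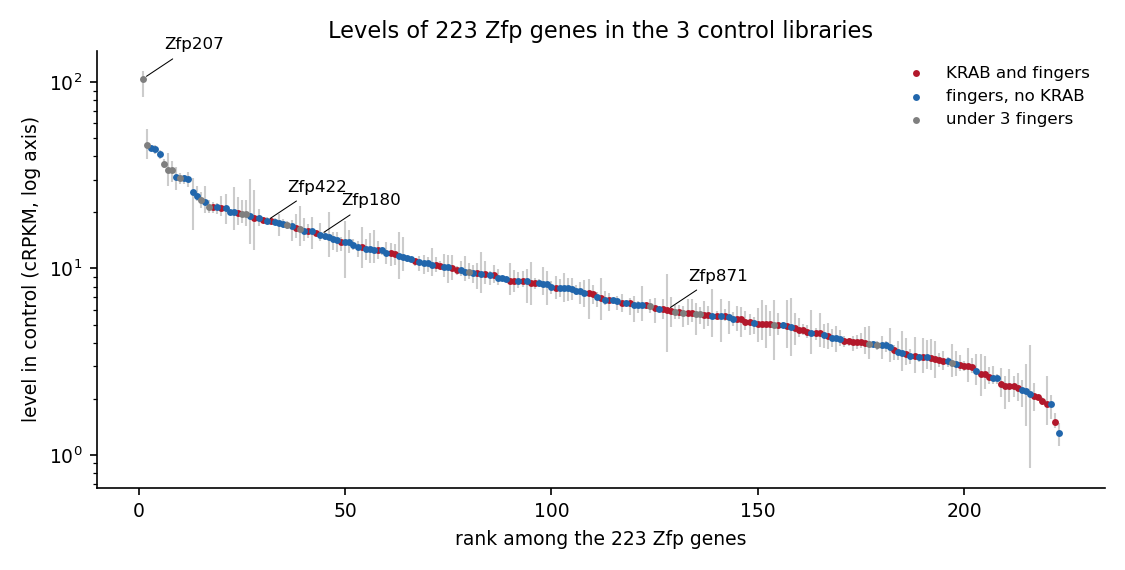
Level of each of the 223 Zfp genes in control cells (cRPKM scale, log axis) against its rank, with the mean of the 3 control libraries as a point coloured by protein class, their range as a grey line and 4 genes labelled. Zfp207 stands at the top with a mean of 104 cRPKM, 15.1 times the median of 6.91, and Zfp871 is at rank 128.

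Libraries held between 44186088 and 63715449 counts. The sympathetic neuron markers Hand2, Chga and Tubb3 were all present. Fibroblast markers summed to at most 2.09 CPM in any library, glial markers to at most 8.07 and immune markers to at most 1.60, with 2 of 8, 1 of 6 and 1 of 6 of them at 0 throughout. In the first experiment the 12 neuronal markers summed to 5207 CPM in control, 4825 after Mbnl1 and Mbnl2 knockdown and 4519 after Nacc1 knockdown. Within the second experiment they were together lowest after Zfp871 knockdown, while its other groups overlapped. They summed to between 5717 and 6741 CPM in the second experiment's controls, between 5125 and 5882 after Srrm4 knockdown and between 4516 and 4923 after Zfp871 knockdown. Of the 11 that could be tested, 3 (Dbh, Phox2a and Stmn2) were called lower after Zfp871 knockdown, and 7 with the column letter as a replicate block. Of all tested genes 2.89% were called there, and 31.1% with the block. After Srrm4 knockdown 1 marker was called lower, and with the block 1 higher and 6 lower, against 4.7% and 36.9% of all tested genes. The part of these markers in the results below was not tested, and in bulk RNA fewer cells of a kind and less RNA per cell cannot be told apart.

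The targeted gene was examined first. Zfp871 stood at 17.9 and 25.9 CPM in control libraries a and b, at 23.3 and 23.2 CPM after Srrm4 knockdown, and at 7.26 and 4.99 CPM after Zfp871 knockdown. Both Zfp871 knockdown libraries were below all 4 others, while the Srrm4 knockdown libraries lay between the controls. Against control the log2 change was -1.84 with a standard error of 0.25 (adjusted p = 0.0271, edgeR quasi-likelihood test on all 6 libraries, Benjamini-Hochberg over 12378 genes). Zfp871 also differed between the knockdowns, by -1.93 (SE 0.25, adjusted p = 0.0122 by the same edgeR test), and not after Srrm4 knockdown, where the change was 0.09 (SE 0.23, adjusted p = 0.857, edgeR). Leaving out 1 library kept the direction, but the call against control was lost without control b (-1.52, adjusted p = 0.0983 with edgeR), without Zfp871 knockdown a (-2.10, adjusted p = 0.114) or without Zfp871 knockdown b (-1.60, adjusted p = 0.247). In the first experiment Zfp871 stood higher, at 47.1 CPM in control, 49.3 after Mbnl1 and Mbnl2 knockdown and 53.6 after Nacc1 knockdown. The exact 95% Poisson interval, which covers counting error only, was 45.5 to 48.8 CPM in that control and 51.8 to 55.5 CPM after Nacc1 knockdown.

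**Figure D2:**
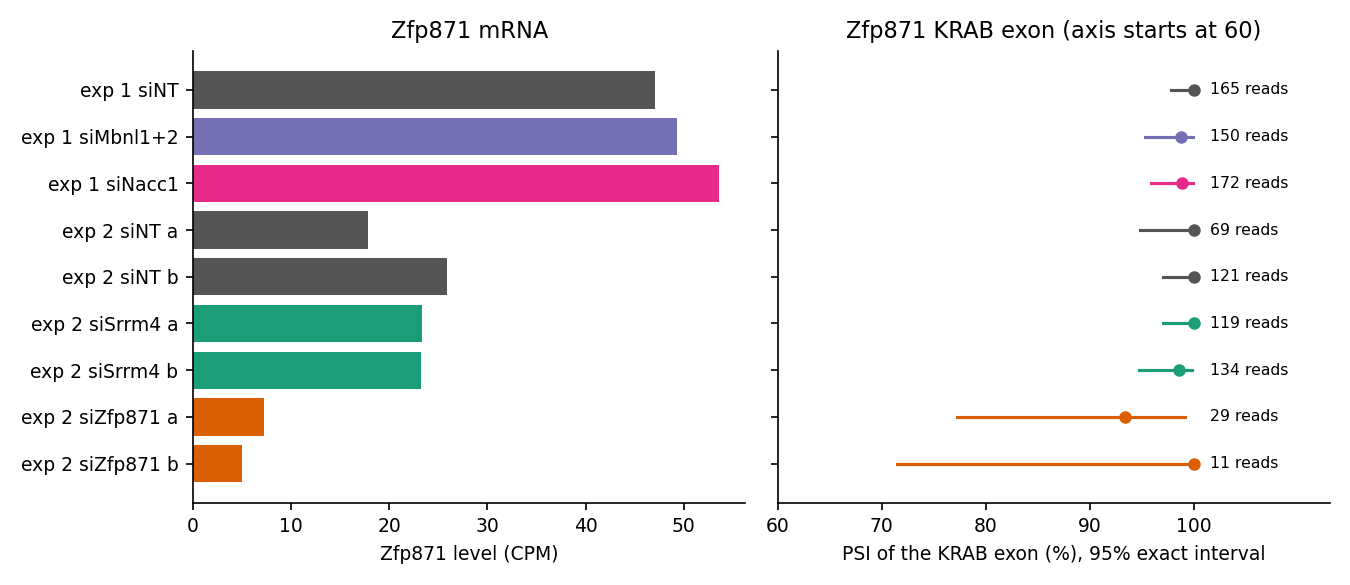
Left, Zfp871 level (CPM) in each of the 9 libraries as bars from 0. Right, inclusion of its KRAB exon in percent with exact 95% intervals and the reads behind each value, on an axis that starts at 60. The 2 Zfp871 knockdown libraries are lowest at 7.26 and 4.99 CPM, and their exon values rest on 29 and 11 reads.

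Few other Zfp genes were called with Zfp871. The controls that set the 5 CPM floor are also the reference of this contrast, so its counts are given as a description. After Zfp871 knockdown 1 gene was called higher (Zfp422) and 3 lower (Zfp871 itself, Zfp238 and Zfp652), or 1.79% of the 223, where 2.89% of all tested genes were called and 3.48% of those past the floor. The median log2 change of the 223 was -0.04, against -0.01 for all tested genes and 0.01 for those past the floor, and 92 of 223 were above 0. At an unadjusted p under 0.05 there were 12 higher and 20 lower, or 14.3%, against 21.1% of all tested genes. In 101 of the 223, or 45.3%, the libraries of the groups did not overlap, against 50.2% of all tested genes. With the column letter as a replicate block edgeR called 49 members, 19 higher and 30 lower, or 22% of the 223 against 31.1% of all tested genes. DESeq2 without the block called 14, or 6.28% against 11.5%. The authors' deposited table, from their own edgeR run, has 1 member higher and 5 lower at a false discovery rate under 0.05 for this comparison, where 7.03% of all genes past the floor pass.

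Zfp238 (now Zbtb18) is a repressor needed for neuronal differentiation. Its level was 63.6 and 60.7 CPM in control, 50.4 and 43.5 after Srrm4 knockdown and 42.5 and 41.0 after Zfp871 knockdown. The Zfp871 knockdown libraries were lowest, below both other groups, and the fall against control was 0.57 on the log2 scale, -0.57 with SE 0.09 (adjusted p = 0.0363, edgeR). After Srrm4 knockdown the change of Zfp238 was -0.41 (adjusted p = 0.0574 in edgeR, 0.000924 with the letter block), and the knockdowns differed by -0.16 (adjusted p = 0.294, edgeR).

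Zfp652, a DNA-binding partner of the Cbfa2t3 corepressor, had 39.2 and 43.3 CPM in control, 31.0 and 28.0 after Srrm4 knockdown and 28.8 and 26.4 after Zfp871 knockdown. Control libraries were above all 4 knockdown libraries, and the knockdown groups overlapped each other. The change was -0.57 (SE 0.11, adjusted p = 0.0486, edgeR) after Zfp871 knockdown and -0.49 (adjusted p = 0.0540 in edgeR, 0.000520 with the letter block) after Srrm4 knockdown.

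Zfp422, a finger protein without KRAB, went the other way. It stood at 50.5 and 47.9 CPM in control, 43.5 and 38.1 after Srrm4 knockdown and 68.7 and 67.9 after Zfp871 knockdown. No library of a group reached the values of another, with Zfp871 knockdown highest and Srrm4 knockdown lowest. The rise against control was 0.48 (SE 0.09, adjusted p = 0.0486, edgeR) and the difference between the knockdowns 0.75 (SE 0.09, adjusted p = 0.0110, edgeR). Of its 50-base windows, 17.9% also occur in another gene, most in Zfp955b, so its counts are less certain than those of Zfp238 or Zfp652. No member was called in this contrast when control b or either Zfp871 knockdown library was left out, and 1 was called without control a or without either Srrm4 knockdown library.

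After Srrm4 knockdown 2 genes were called higher and 6 lower, or 3.59% of the 223, where 4.7% of all tested genes and 5.69% of those past the floor were called. Srrm4, a splicing factor that promotes the inclusion of neuronal microexons, was itself lower at 29.0 and 25.5 CPM against 67.8 and 95.6 in control (-1.59, SE 0.19, adjusted p = 0.0222, edgeR). This contrast has the same control libraries as the one before, so the results are not independent of each other, and the floor again used its reference. The median change was -0.02 with 108 of 223 above 0, and at an unadjusted p under 0.05 there were 20 higher and 28 lower, where 24.8% of all tested genes were past that value. Groups did not overlap in 124 genes, 55.6%, against 53.7% of all tested genes. With the letter as a replicate block 29 were higher and 41 lower, or 31.4% against 36.9% of all tested genes, and DESeq2 called 23, or 10.3% against 15.4%. No gene with a KRAB pattern was called by edgeR without the block, with 14 of 94 at an unadjusted p under 0.05, 21 called with the block and 6 called by DESeq2. The authors' deposited table has 3 members higher and 9 lower, where 9.72% of all genes past the floor pass.

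Zfp687, a partner of Zmynd8 in chromatin regulation, fell most among the called genes. Its values were 42.1 and 40.8 CPM in control, 24.1 and 18.1 after Srrm4 knockdown and 40.0 and 44 after Zfp871 knockdown. The Srrm4 knockdown libraries were far below the other 4, which overlapped. The change was -0.98 (SE 0.14, adjusted p = 0.0275, edgeR) against control and the knockdowns differed by 1.01 (SE 0.14, adjusted p = 0.0144, edgeR).

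Zfp180, with 12 fingers and no KRAB pattern in its annotated protein, rose most. It had 53.6 and 53.9 CPM in control, 90.6 and 94.5 after Srrm4 knockdown and 56.7 and 57.5 after Zfp871 knockdown. Both Srrm4 knockdown libraries were above all others. The rise was 0.79 (SE 0.09, adjusted p = 0.0211, edgeR), and the knockdowns differed by -0.69 (SE 0.09, adjusted p = 0.0124, edgeR).

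Zfp367 was the other gene called higher, from 30.5 and 32.4 CPM in control to 45.0 and 53.4 after Srrm4 knockdown (0.65, SE 0.13, adjusted p = 0.0471, edgeR). It stood at 34.1 and 35.5 CPM after Zfp871 knockdown, between the groups. Zfp609, known as a partner of the cohesin loader Nipbl in neural progenitors, fell from 135 and 138 CPM to 104 and 97.7 (-0.44, SE 0.09, adjusted p = 0.0474, edgeR). The other 4 genes called lower, Zfp512, Zfp704, Zfp710 and Zfp362, had changes between -0.62 and -0.61, and in each of them both Srrm4 knockdown libraries were below both controls. Zfp362 went from 84 and 84.2 CPM to 52.2 and 56.8, and Zfp710 from 53.1 and 49.4 to 36.4 and 30.4. Zfp512 went from 58.9 and 54.5 to 40.2 and 34.2 CPM, and Zfp704, which shares 18.2% of its windows with other genes, from 36.1 and 38.8 to 24.6 in both libraries. No member was called in this contrast without either control library, Srrm4 knockdown b or either Zfp871 knockdown library, and 2 were called without Srrm4 knockdown a.

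The direct comparison of the Zfp871 with the Srrm4 knockdown sets no library that chose the genes against another. The control libraries, which set the floor, still entered its fit and its estimate of the spread. Here 5 Zfp genes were called higher and 8 lower after Zfp871 knockdown, or 5.83% of the 223, against 11.1% of all tested genes and 13% of those past the floor. The median difference was -0.02, against -0.01 over all tested genes, with 101 of 223 above 0. At an unadjusted p under 0.05 there were 22 higher and 27 lower, where 29.3% of all tested genes were past it. Groups did not overlap in 122 genes, 54.7%, against 59.2% of all tested genes. With the letter as a replicate block 35 were higher and 34 lower, or 30.9% against 41.9% of all tested genes, and DESeq2 called 35, or 15.7% against 20.2%. With only the 4 libraries of the comparison fitted, without controls, edgeR called 12 members, or 5.38% against 9.56% of all tested genes.

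The KRAB class held 6 of the 8 genes lower in this comparison and none of the 5 higher. With DESeq2, 4 of its genes were higher and 9 lower, and at an unadjusted p under 0.05 in edgeR 7 were higher and 12 lower. With the letter as a replicate block 13 KRAB genes were higher and 14 lower. Among finger proteins without KRAB 5 were higher and 2 lower, or 10 and 8 with DESeq2 and 17 and 18 with the letter block. At an unadjusted p under 0.05 in edgeR 12 of them were higher and 14 lower. The share called by edgeR was 6.38% of KRAB genes and 6.54% of finger genes without KRAB, against 11.1% of all tested genes. Whether the classes differ was not tested. Besides Zfp871, the KRAB genes lower after Zfp871 than after Srrm4 knockdown were Zfp316, Zfp617, Zfp788, Zfp715 and Zfp120.

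Zfp788, which has 23 fingers, stood at 18.6 and 23.3 CPM in control, 23.5 and 25.8 after Srrm4 knockdown and 14.4 and 13.3 after Zfp871 knockdown. The Zfp871 knockdown libraries were below the other 4, and the other groups adjoined. The difference between the knockdowns was -0.83 (SE 0.16, adjusted p = 0.0282, edgeR).

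Zfp715, with 19 fingers, had 20.2 and 22.5 CPM in control, 22.2 and 22.4 after Srrm4 knockdown and 16 and 13 after Zfp871 knockdown. Here only the Zfp871 knockdown libraries stood apart, and the difference was -0.62 (SE 0.14, adjusted p = 0.0402, edgeR). For Zfp617 the values were 43.3 and 44.2, 51.0 and 53.7, and 37.4 and 33.5 CPM in the same order, with the 3 groups apart from each other. Its difference was -0.56 (SE 0.10, adjusted p = 0.0233, edgeR), and 41.6% of its windows are shared with other genes, most with Gm18180.

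Zfp316 had 29.3 and 28.1 CPM in control, 40.2 and 36.1 after Srrm4 knockdown and 25.9 and 23.2 after Zfp871 knockdown, a difference of -0.63 (SE 0.10, adjusted p = 0.0182, edgeR). Zfp120, near the floor, had 10.5 and 11.7, 13.2 and 13.5, and 9.27 and 7.47 CPM (-0.67, SE 0.16, adjusted p = 0.0461, edgeR). In both genes controls lay between the knockdowns. Outside the KRAB class Zfp438 was lower by the same measure, with 10.6 and 10.2, 14.8 and 16, and 8.89 and 8.37 CPM (-0.83, SE 0.13, adjusted p = 0.0196, edgeR), as was Zfp180. The genes higher after Zfp871 than after Srrm4 knockdown were Zfp687 and Zfp422, described above, and Zfp710, Zfp358 and Zfp64, all without KRAB. Zfp64 rose by 0.58 (SE 0.13, adjusted p = 0.0402, edgeR), from 29.5 and 24.4 CPM to 38.6 and 41.6, and control was 38.3 and 31.8. Zfp710 and Zfp358 were higher by 0.51 (adjusted p = 0.0354) and 0.47 (adjusted p = 0.0358, edgeR). No member was called in this comparison without Srrm4 knockdown b or either Zfp871 knockdown library, and 6 were called without Srrm4 knockdown a.

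**Figure D3:**
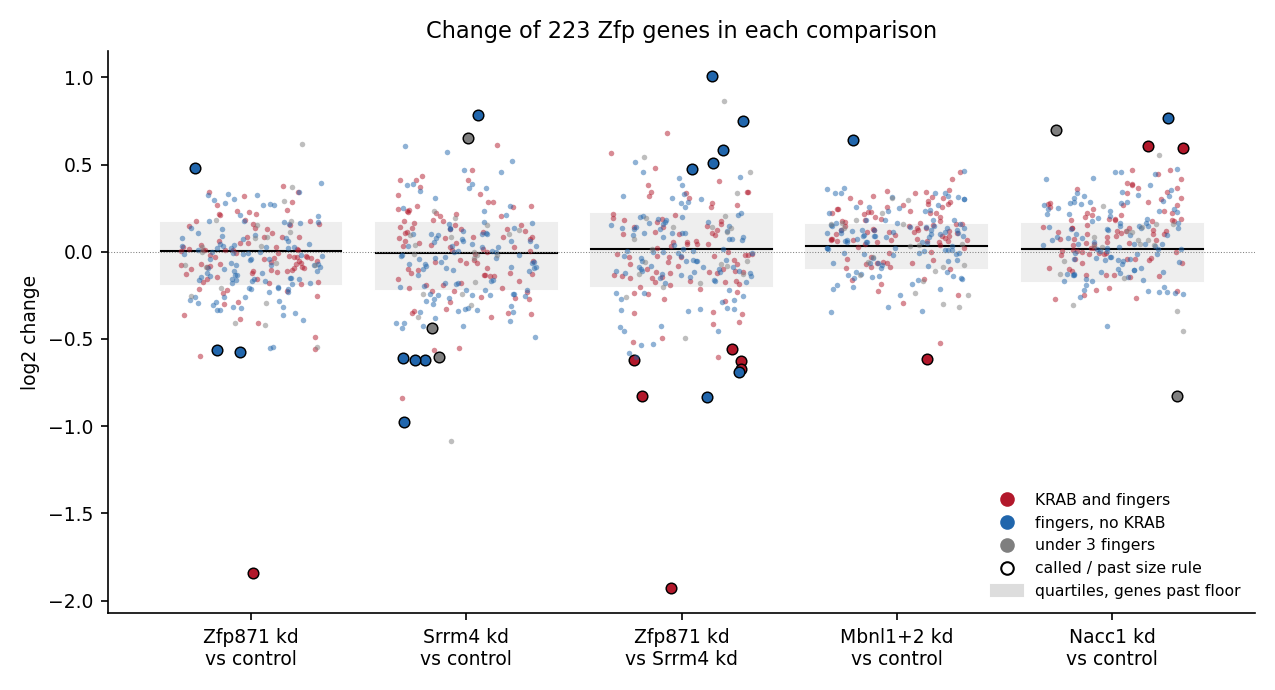
Log2 change of each of the 223 Zfp genes in 5 comparisons, coloured by protein class, with called genes (or those past the size rule where there is 1 library a group) outlined, and the quartiles and median of all genes past the floor as a grey box and line. Medians lie between -0.04 and 0.09, and Zfp871 at -1.84 and -1.93 stands alone at the bottom of both comparisons of its own knockdown.

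**Figure D4:**
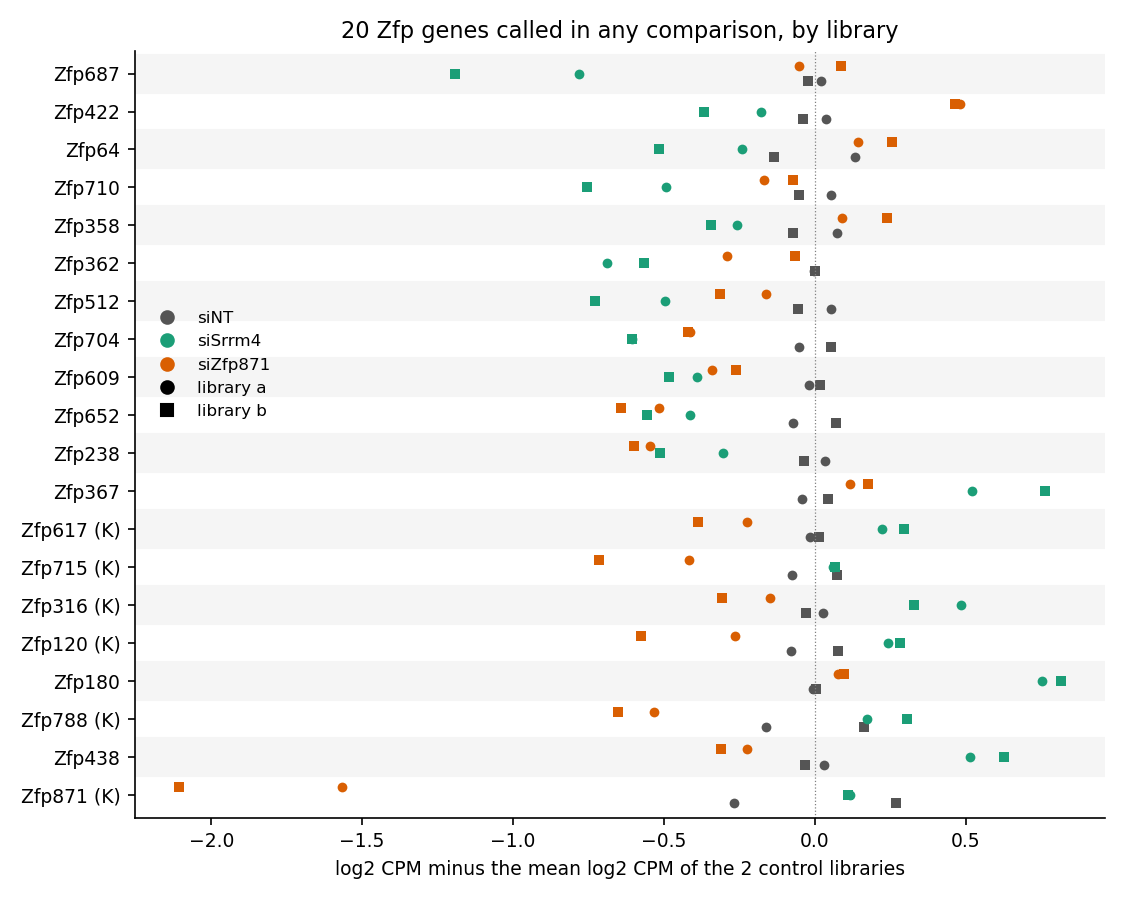
Log2 CPM of the 20 Zfp genes called in any comparison of the second experiment, in each of its 6 libraries, relative to the mean of the 2 control libraries; K marks KRAB genes. Zfp687 and Zfp180 depart only in the Srrm4 knockdown libraries, while Zfp652 and Zfp238 are below control in all 4 knockdown libraries.

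Across the 3 comparisons 20 of the 223 genes were called at least once by edgeR without the block and 203 never. The matching share over all tested genes was not computed. In the single comparisons 1.79%, 3.59% and 5.83% of the 223 were called, against 2.89%, 4.7% and 11.1% of all tested genes.

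Zfp genes with known roles were then read by role. For these groups and the lists below, edgeR called 2.89%, 4.7% and 11.1% of all tested genes in the 3 comparisons. The shares were 31.1%, 36.9% and 41.9% with the letter block and 11.5%, 15.4% and 20.2% with DESeq2. At an unadjusted p under 0.05 in edgeR they were 21.1%, 24.8% and 29.3%. Of 8 listed genes of stem cells and imprinting, 5 were expressed: Zfp57 and Zfp445, which keep imprints, Zfp568, which represses Igf2 transcripts, and the pluripotency factors Zfp281 and Zfp462. None of these was called by edgeR in any of the 3 comparisons, with 0, 2 and 1 at an unadjusted p under 0.05 and 0, 1 and 1 called by DESeq2, the last being Zfp57. With the letter block 1, 3 and 2 were called. Zfp57 had 21.9 and 18.1 CPM in control, 14.2 and 8.36 after Srrm4 knockdown and 19.6 and 16.1 after Zfp871 knockdown. Its Srrm4 knockdown libraries were lowest but differed widely from each other, and the change was -0.84 (SE 0.24, adjusted p = 0.100 in edgeR, 1.66e-05 with the letter block).

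Of 8 listed genes for RNA binding, splicing and translation, 7 were expressed: Zfp36 (tristetraprolin, which destabilises mRNA), Zfp106, Zfp207, Zfp326, Zfp346, Zfp598 (a sensor of collided ribosomes) and Zfp830. None was called by edgeR in any comparison, with 2, 2 and 4 at an unadjusted p under 0.05 and 1, 0 and 3 called by DESeq2. With the letter block 2, 2 and 3 were called. Zfp36 had the widest change after Zfp871 knockdown, with 10.7 and 11.4 CPM in control, 8.44 and 10.2 after Srrm4 knockdown, and 13.2 and 20.5 after Zfp871 knockdown. Its Zfp871 knockdown libraries were above the other 4 but far apart from each other (0.62, SE 0.25, adjusted p = 0.221 in edgeR, 0.00143 with the letter block).

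Of 9 neural and progenitor genes, 6 were expressed: Zfp238, Zfp335, Zfp423, Zfp503, Zfp703 and Zfp219. After Zfp871 knockdown edgeR called Zfp238 alone, or 1 higher and 4 lower with the letter block, 5 of the 6 had changes below 0 and their median was -0.41, beside -0.01 over all tested genes. Zfp423, a cofactor of Ebf proteins in neural progenitors, had 100 and 119 CPM in control, 76.9 and 86.6 after Srrm4 knockdown and 68.8 and 81.2 after Zfp871 knockdown, with controls above the other 4 (-0.54, SE 0.15, adjusted p = 0.115 in edgeR, 3.05e-05 with the letter block). DESeq2 called Zfp423 as well as Zfp238. After Srrm4 knockdown edgeR called 0 of the 6, with 3 at an unadjusted p under 0.05, 3 with the letter block and 2 by DESeq2. The widest of these was Zfp703, at 15.3 and 10.2 CPM in control and 8.33 and 3.78 after Srrm4 knockdown (-1.09, SE 0.36, adjusted p = 0.135 in edgeR, 2.01e-05 with the letter block). Between the knockdowns 4 of the 6 had changes below 0. Within the second experiment the summed neuronal markers, as given above, were lowest after Zfp871 knockdown, while their Srrm4 knockdown and control values overlapped. The part of the markers in these values was not tested.

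Of 9 genes for general promoter and corepressor factors, 8 were expressed (Zfp91, Zfp143, Zfp148, Zfp217, Zfp384, Zfp410, Zfp592 and Zfp687). Zfp687 was the only one that edgeR called without the block, lower after Srrm4 knockdown and higher in the direct comparison. With the letter block 1, 3 and 2 of the 8 were called in the 3 comparisons. After Zfp871 knockdown edgeR called 0 of the 8, with 1 at an unadjusted p under 0.05 and 0 by DESeq2, and their median was 0.01.

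Zfp871 sits in a cluster of related genes. Within 1 Mb of it on chromosome 17 there are 12 other numbered Zfp names, of which 6 were expressed: Zfp799, Zfp472, Zfp763, Zfp81, Zfp101 and Zfp414. None of the 6 was called by edgeR in any comparison. At an unadjusted p under 0.05 there was 1 in each, and DESeq2 called 0, 1 (Zfp763, after Srrm4 knockdown) and 0. With the letter block edgeR called 2, 2 and 1, where it called 31.1%, 36.9% and 41.9% of all tested genes. Their median change was -0.16 after Zfp871 knockdown, -0.25 after Srrm4 knockdown and 0.04 between the knockdowns. Zfp799 had 5.41 and 5.85 CPM in control and 5.22 and 5.11 after Zfp871 knockdown (-0.12, SE 0.16, adjusted p = 0.725, edgeR), close to the floor of 5 CPM.

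The 5 proteins most alike Zfp871 by alignment score were those of Zfp799, Zfp617, Zfp788, Zfp763 and Zfp101, which also include the nearest KRAB exons printed above. All 5 had changes below 0 after Zfp871 knockdown, with a median of -0.18 and a range from -0.60 (Zfp788) to -0.12 (Zfp799). In that contrast 92 of the 223 genes were above 0, with a median of -0.04. Of the 94 KRAB genes 40 were above 0, with a median of -0.03. Whether the 5 differ from these was not tested. None of the 5 was called by edgeR in that contrast, with 2 at an unadjusted p under 0.05. With the letter block 2 were called (Zfp617 and Zfp788, both lower), and DESeq2 called 1 (Zfp788). The shares of all tested genes were 21.1% at that unadjusted p, 31.1% with the block and 11.5% with DESeq2. In the direct comparison Zfp617 and Zfp788 were called lower, as given above, and 3 of the 5 were below 0.

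The machinery that KRAB proteins use was measured with a list of 28 genes, 27 of them tested, among them Trim28, Setdb1 and the Cbx proteins. After Zfp871 knockdown edgeR called none, with 4 higher and 0 lower at an unadjusted p under 0.05, 3 called higher by DESeq2 and 6 higher and 1 lower with the letter block. Their median change was 0.04. After Srrm4 knockdown edgeR called 1 lower, 4 were lower and 0 higher at an unadjusted p under 0.05, and DESeq2 called 3 lower, Cbx1 among them. With the letter block 1 was higher and 6 lower. Between the knockdowns the histone methyltransferase Suv39h2 (0.56), the DNA methyltransferase Dnmt3b (0.69) and Cbx1 (0.43) were among the 4 of 27 called, all higher after Zfp871 knockdown, or 14.8% against 11.1% of all tested genes. With the letter block 9 were higher and 2 lower, and the list's median was 0.17. Trim28 itself did not pass the test, at 570 and 654 CPM in control and 575 and 696 after Zfp871 knockdown (0.06, SE 0.14, adjusted p = 0.846, edgeR).

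Other zinc finger families were read the same way. Of 29 Zbtb genes edgeR called 0 against control in either knockdown, with 1 and 3 at an unadjusted p under 0.05, 2 and 7 with the letter block and 0 and 2 by DESeq2. Between the knockdowns Zbtb12 was higher and Zbtb38 lower after Zfp871 knockdown. Of 13 Zscan and Zkscan genes 1 was called, Zkscan1, lower after Srrm4 knockdown at 30.2 and 27.7 CPM against 40.8 and 49.2 (-0.64, SE 0.12, adjusted p = 0.0428, edgeR). Of 11 Klf genes Klf12 was lower after Srrm4 knockdown, and between the knockdowns Klf12 and Klf4 were higher and Klf6 lower after Zfp871 knockdown. Of 11 Zfp names outside the numbered rule, Zfp385a and Zfp36l2 were lower after Srrm4 knockdown. EdgeR with the letter block called 0, 5 and 5 Zscan and Zkscan genes, 5, 6 and 6 Klf genes, 3, 4 and 5 of the other Zfp names and, between the knockdowns, 10 Zbtb genes. That fit called 31.1%, 36.9% and 41.9% of all tested genes in the 3 comparisons. The fall of Zfp385a, from 54.1 and 40.0 CPM to 16.7 and 9.55 (-1.85, SE 0.26, adjusted p = 0.0262, edgeR), was larger than that of any numbered gene called in that contrast.

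The first experiment has 1 library a group, so it has no test, and a gene was listed when its CPM differed from control by at least 1.5-fold. The control library also set the floor. After knockdown of Mbnl1 and Mbnl2, the muscleblind splicing factors, 1 Zfp gene was higher and 1 lower, or 0.897% of the 223 against 2.25% of all genes past the floor. Zfp759 went from 7.08 CPM (95% Poisson interval 6.44 to 7.76) to 11 (10.1 to 12), a log2 change of 0.64. Zfp930 went from 23.1 (22 to 24.3) to 15.1 CPM (14.1 to 16.3), a change of -0.61. The median change of the 223 was 0.09 against 0.03 for all genes past the floor, and 155 of 223 were above 0.

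After knockdown of Nacc1, a BTB domain transcriptional regulator, 4 Zfp genes were higher and 1 lower, or 2.24% against 6.64% of all genes past the floor. Zfp420 went from 19.3 CPM (18.3 to 20.4) to 32.8 (31.4 to 34.3), a change of 0.76. Zfp503, a developmental corepressor, went from 17 (16 to 18) to 27.6 CPM (26.3 to 28.9), and Zfp568 from 34.4 (32.9 to 35.8) to 52.0 (50.2 to 53.8). Zfp799 went from 6.86 (6.23 to 7.53) to 10.4 CPM (9.64 to 11.3), a change of 0.61.

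Zfp36 was the gene that was lower, from 7.69 CPM (7.02 to 8.40) to 4.34 (3.83 to 4.90), a change of -0.82. Among all genes past the floor 0.754% were at least 1.5-fold higher and 5.89% lower, whereas 4 of the 5 Zfp genes listed were higher. The median change was 0.09, with 149 of 223 above 0, against 0.02 for all genes past the floor. Both comparisons share the control library, and a difference between single libraries has no replicate check.

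Splicing of Zfp genes was read as PSI, the percent of a gene's transcripts that include an exon, splice site or intron. The KRAB exon of Zfp871 (chr17:32914346-32914472 in mm9, the build of the deposited tables) was included in nearly all transcripts. Its PSI was 100 in both controls of the second experiment (69 and 121 reads), 100 and 98.5 after Srrm4 knockdown (119 and 134 reads), and 93.3 and 100 after Zfp871 knockdown. Those last values rest on 29 and 11 reads and have exact 95% intervals of 77.2 to 99.2 and 71.5 to 100. The difference against control was -3.33 points (adjusted p = 0.888, edgeR). In the first experiment PSI was 100 in control, 98.7 after Mbnl1 and Mbnl2 knockdown and 98.8 after Nacc1 knockdown, on 150 to 172 reads. A further listed exon of 134 bases (chr17:32924228-32924361, mm9), with no match in GENCODE M21, had a PSI between 0 and 11.2 on 5 to 89 reads. The intron at chr17:32912954-32914101 (mm9) had a PSI of 0 in all 9 libraries on 12 to 105 reads. The authors' deposited table marks no event of Zfp871 as differential in any knockdown.

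The same exon could be followed in other genes. Among the 223 genes 24 cassette exons of 127 bases are listed, and 21 of them could be matched to an annotated exon by their length and the length of at least 1 intron beside them. Of these, 19 were the KRAB exon, 17 matched on both introns and 2 (Zfp655 and Zfp933) on 1. In those 2 genes all listed cassette exons, 3 and 2 of them, lie at the spacing of annotated exons. Of the 19, 18 had at least 10 reads in all 6 libraries of the second experiment. Mean PSI was above 80 in 17 of the 18, or 94.4%, against 63.9% of the other 462 cassette exons of these genes and 74.0% of all 36923. The medians were 99.0, 94.8 and 98.4. Skipping the exon removes the A box and, as 127 is no multiple of 3, shifts the reading frame.

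Zfp655 was the exception. Its KRAB exon, printed above, had a PSI of 11.8 and 9.75 in control, 11.4 and 9.48 after Srrm4 knockdown and 13.0 and 13.4 after Zfp871 knockdown. In the first experiment it stood at 9.97 in control, 9.04 after Mbnl1 and Mbnl2 knockdown and 8.51 after Nacc1 knockdown. The exon was thus mostly skipped in all 9 libraries, while no library was below 84.7 in the other 17 genes.

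**Figure D5:**
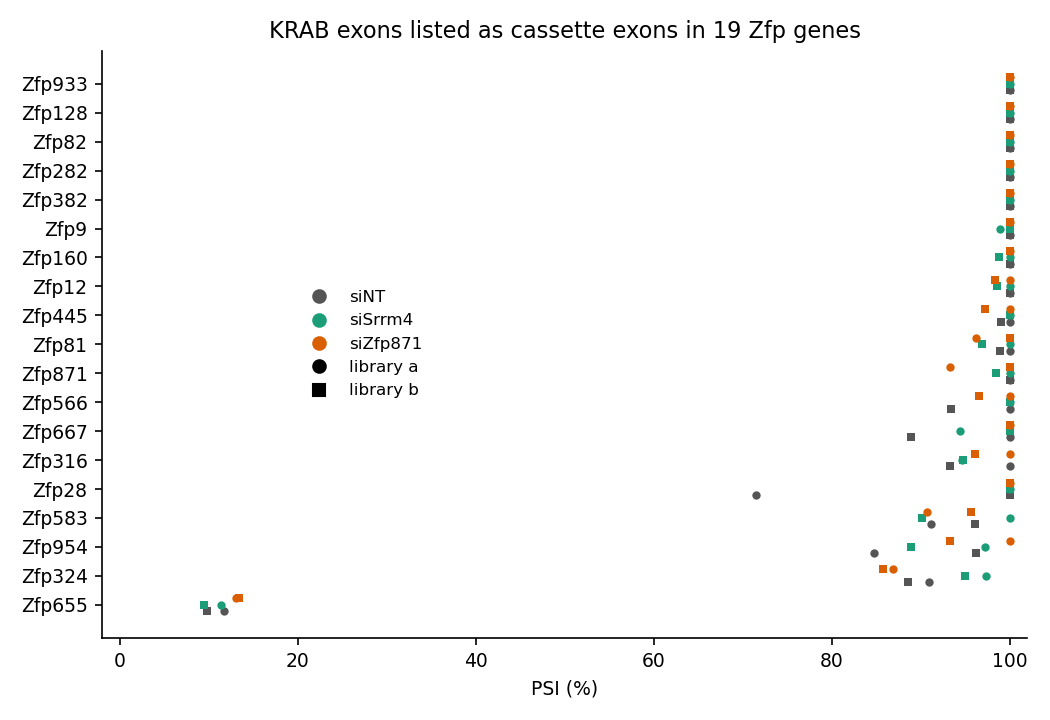
PSI of the KRAB exon (percent, one row per gene) in the 6 libraries of the second experiment for 19 Zfp genes, coloured by group with a and b as circles and squares. Nearly all points lie close to 100, Zfp655 lies between 9.48 and 13.4, and Zfp28, with as few as 3 reads, is spread most among the rest.

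Across all alternative exons of the Zfp genes, 371 exons in 156 genes could be tested in the second experiment. None was called at an adjusted p under 0.05 and 10 PSI points in any of the 3 comparisons by edgeR or by limma, where 0%, 0.123% and 0% of all 20266 tested exons were called by edgeR. At an unadjusted p under 0.05 there were 5 after Zfp871 knockdown, 7 after Srrm4 knockdown and 10 between them, against 4.67%, 5.71% and 5.33% of all tested exons. The smallest adjusted p among the 371 was 0.888, 0.730 and 0.853. A further 446 alternative splice sites and 405 introns of these genes gave no call with limma, where 0%, 0% and 0.00406% of all 49225 such events were called. At an unadjusted p under 0.05 there were 53, 40 and 48 splice sites, against 7.41%, 6.02% and 7.8% of all tested sites, which is 11.9%, 8.97% and 10.8% of the 446. There were 28, 34 and 22 introns, or 6.91%, 8.40% and 5.43% of the 405, against 6.23%, 6.27% and 5.24% of all tested introns. Sites of 1 event are not independent of each other, since their PSI values add up to 100.

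The events that the authors' deposited table marks as differential did not pass this test. The sites described here were chosen for that mark after their values were seen. In Zfp1, a KRAB gene, use of an alternative acceptor site (chr8:114189978-114190100, mm9) had a PSI of 60.5 and 71.4 in control, 70.5 and 60.8 after Srrm4 knockdown and 42.6 and 26.7 after Zfp871 knockdown, on 43 to 74 reads. Only the Zfp871 knockdown libraries stood apart, by -31.3 points (adjusted p = 0.577, limma), and the other marked acceptor site of the same gene, a choice against the first, went up by 33.2 points (adjusted p = 0.558, limma). In Zfp7 use of an alternative donor site on chromosome 15 had a PSI of 64.7 and 63.3 in control, 27.3 and 21.9 after Srrm4 knockdown and 56.5 and 52.4 after Zfp871 knockdown, on 21 to 34 reads. The Srrm4 knockdown libraries were far below the rest of the second experiment, by -39.4 points against control (adjusted p = 0.350, limma). In the first experiment the PSI of this Zfp7 site was 78.4 in control, 55.6 after Mbnl1 and Mbnl2 knockdown and 60.8 after Nacc1 knockdown. It is marked by the authors in both of those knockdowns too. The authors' table marks 2 of 1970 events of these genes for Zfp871 knockdown (0.102%, against 0.236% of all events) and 5 of 1992 for Srrm4 knockdown (0.251%, against 0.261%).

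In the first experiment 464 alternative exons in 170 Zfp genes had 20 reads in each library, and 1 in each knockdown differed from control by 20 points with 95% intervals apart. That is 0.216%, against 0.534% of all such exons for Mbnl1 and Mbnl2 and 0.498% for Nacc1. A 17-base exon of Zfp511 (chr7:147223017-147223033, mm9) had a PSI of 27.6 (18.2 to 38.2, 84 reads) after Mbnl1 and Mbnl2 knockdown and 6.64 (2.74 to 11.9, 128 reads) in control. An exon of 108 bases in Zfp238 (chr1:179374116-179374223, mm9) had a PSI of 54.1 (43.8 to 63.7, 104 reads) after Nacc1 knockdown and 24.7 (17.4 to 33.9, 116 reads) in control. The Zfp511 exon is marked as differential by the authors for Mbnl1 and Mbnl2 knockdown, while the Zfp238 exon is not marked for Nacc1 knockdown. The authors' table marks 40 of 1939 events of the Zfp genes for Mbnl1 and Mbnl2 knockdown (2.06%, against 0.871% of all events) and 33 of 1943 for Nacc1 knockdown (1.70%, against 0.931%), with no test of the difference in shares. Some of these marks are on sites of 1 event, as in Zfp281, and so are not independent. Others, as in Zfp7, are on events marked in both knockdowns, which share 1 control library.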

How the data were processed

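The 223 genes, the role groups and the gene lists were chosen with earlier results of these data known. The authors deposited raw read counts, cRPKM (an RPKM measure whose c is not explained), log2 fold changes and false discovery rates (p-values adjusted by the authors, with edgeR per the labels' design text), and numbers of inclusion and exclusion reads for each splicing event. The submitters' processing notes name CASAVA 1.8, edgeR and mm9; for the aligner and the counting program, the names are not given in the sources used. A further 26 columns of per-library values were not used; PSI was computed from the event's reads and second-experiment cRPKM from CPM. The tables hold 21553 genes with counts and 1114 entries without.

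Counts of the 6 libraries of the second experiment were fitted with edgeR 4.0.16 (R 4.3.3; filterByExpr, TMM, quasi-likelihood, no replicate block) over 12378 genes, and genes with an adjusted p (Benjamini-Hochberg) under 0.05 were called. The first experiment was compared as log2 ratio of CPM with exact Poisson intervals. Exons with 10 or more reads in every library, and in 1 or more of them a PSI within 2 to 98, were tested with edgeR on their reads, which were rounded, and other events with limma 3.58.1 on logit PSI with an offset of 1. Deviations from the group mean correlated between libraries of different groups that carry the same letter (r = 0.749, 0.662 and 0.637 over 12378 genes for the 3 pairs of groups), so a fit with the letter as a replicate block is given beside counts and calls it changes. That pairing comes from the data alone: no source says what a letter marks. Gene fits were tested on simulated data. Named genes are Zfp871, every called gene up to 12 a direction, up to 6 a direction past the size rule, the expressed genes of the role groups, and the neighbours and closest relatives of Zfp871. Protein features come from translated GENCODE M21 coding sequences (GRCm38), used where RefSeq proteins had been planned: 211 genes matched by symbol and ID, 9 by ID and 3 by symbol. Values of some single genes on the lists are not reported here. Coordinates were not converted between builds. Alternatives were DESeq2 1.42.0, other normalisations, filters, floors and designs, and leaving out each library.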

Additional observations from a re-analysis of the deposited data

How the results depend on the processing

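Over the alternatives the median change of the 223 genes ran from -0.07 to 0.01 in the comparisons of the second experiment and from 0.06 to 0.11 in those of the first. None of the called genes that were run under the alternatives reversed. Of the other genes run, 2 did: Trim28 after Zfp871 knockdown, from -0.093 to 0.22 when 1 library was left out, and Zfp871 after Srrm4 knockdown, from -0.17 to 0.40. No exon of these genes was called in any setting. Counts of called genes depended on the tool and the libraries. Of 4 members called after Zfp871 knockdown, 2 remained as a count with library totals in place of TMM, 1 when only the 4 libraries of the comparison were fitted, and 14 were called by DESeq2, which called 1341 of all genes. After Srrm4 knockdown (8 members) the count was 0 with only 4 libraries (0 of 12285 over all genes) and 23 with DESeq2 (1750 of all genes), and between the knockdowns (13) it was 35 with DESeq2 (2426 of all genes). Leaving out 1 library gave 0 to 1, 0 to 2 and 0 to 12 members. Over all genes, 0 were called in any of the 3 comparisons without either Zfp871 knockdown library. The fall of Zfp871 ranged from -2.10 to -1.52 when 1 library was left out. Past the size rule, 2 genes for Mbnl1 and Mbnl2 became 0 at 2-fold, 1 at a floor of 10 CPM and 4 at 1 CPM, and 5 genes for Nacc1 became 0 at 2-fold and 3 at a floor of 10 CPM. Floors of 10 CPM, of 1 CPM and of a mean of 5 CPM would choose 172, 291 and 239 genes.

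With the column letter as a replicate block, 49, 70 and 69 members were called in the 3 comparisons, against 4, 8 and 13 without it, while 3854, 4565 and 5191 of all 12378 genes were called. It added to the calls and took none away among the single genes it was run for, and called no exon of these genes. Depth limits the exon values: the KRAB exon of Zfp871 rested on as few as 11 reads in its knockdown and that of Zfp28 on as few as 3.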
